A study of Mus musculus with 16 samples.

Results

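Sleep disruption (SD) was compared with undisturbed sleep in the mouse somatosensory cortex over both genotypes of the series at once, to give the main effect of SD with 6 mice on each side. All labelled mice with a column in the deposited tables were used, which were 12 of 16, and the other 4 were not analysed here. The SD side held 3 wild-type mice (SD-WT replicates 01, 02 and 04) and 3 AcPb-/- mice (SD-AcPbKO replicates 02, 03 and 04), kept awake by gentle handling for 8 h, from ZT20 to ZT4. The control side held 3 wild-type mice (CTL-WT replicates 01, 02 and 03) and 3 AcPb-/- mice (CTL-AcPbKO replicates 03, 04 and 05), which were left undisturbed. ZT0 is light onset in a cycle of 12 h light and 12 h dark. Every mouse was killed at ZT4, was labelled male and was 2 to 3 months old. Wild-type mice were C57BL/6 in the labels, and of the J substrain in the study's methods. AcPb-/- mice lack AcPb, the brain-specific form of the interleukin-1 receptor accessory protein encoded by Il1rap, and came from a colony bred as homozygotes. SD began in the last part of the dark period and ended in the first part of the light period, so SD mice were awake at a time when controls could sleep. Gentle handling brings prolonged waking together with novelty and contact with the experimenter, and the design does not separate these.

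Prolonged waking is known to change the cortical transcriptome through several routes at once. Neuronal firing induces immediate early genes within minutes and effector genes after them. The adrenal stress hormone corticosterone acts through the glucocorticoid receptor on genes in neurons, glia and vessels. Protein folding in the endoplasmic reticulum (ER) is under load in wakefulness, and its chaperones are induced by the unfolded protein response. Clock genes, RNA-binding proteins that follow brain temperature, and sterol synthesis genes are also known to move with sleep and wake.

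Library size differed between the sides. Reads counted on genes were 26504840 to 41615582 in the 6 control libraries and 58770286 to 71857505 in the 6 SD libraries, so the smallest SD library held 1.41 times the reads of the largest control library. Depth and SD cannot be told apart by grouping the libraries, and a fit on reads thinned to the smallest total is given beside the main count. Xist, the noncoding RNA made by an inactive X chromosome, had over 1000 reads in 4 of 6 controls (CTL-WT replicates 02 and 03, CTL-AcPbKO replicates 04 and 05) and in 0 of 6 SD libraries. Those 4 controls held 0 to 2 reads of Uty, Kdm5d, Eif2s3y and Ddx3y, all on chromosome Y, whereas each of the other 8 libraries held at least 5105. These reads go against the label male in 4 controls. The main counts are therefore given also with a term for Xist, in the libraries without Xist (6 SD against 2 controls) and with only the controls that had Xist (6 SD against 4). No SD library had Xist, so with that term the SD effect rests on the 2 controls without Xist. The term and the libraries without Xist are thus nearly the same comparison, and their agreement is no separate support. Il1rap, counted over all its forms, had 1476 to 1647 normalized counts in controls (median 1518) and 1729 to 2062 after SD (median 1922), so the gene count, which also includes the form kept in AcPb-/- mice, does not check the deletion of 1 form. Of the markers of excitatory neurons and of astrocytes, all 15 and 15 were detected. Markers of choroid plexus summed to 349.8 to 663 normalized counts in controls and 378 to 18410 after SD, the highest from 1 library (SD-AcPbKO replicate 04), in which Ttr alone had 16186.

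Over both genotypes, 8823 of 20978 tested genes passed an adjusted p of 0.05 (42.1%) in limma with genotype as a covariate. Of these, 4497 were upregulated (21.4%) and 4326 downregulated (20.6%). The values are normalized counts, reads divided by a size factor per library, and fold changes are given as log2 of the normalized count plus 1, SD over control, with the standard error (SE) of the fit. The changes were mostly small. Their median absolute log2 fold change was 0.35, with 10% below 0.17 and 10% above 0.82. A change of 1 or more on the log2 scale was reached by 489 genes, 230 upregulated and 259 downregulated. The median log2 fold change over all tested genes was 0.0029. For 2438 genes (11.6%) every SD library lay above every control library, and for 2209 genes (10.5%) every SD library lay below.

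Pooling the genotypes gave a smaller error, which follows from the number of mice. Over the 16062 genes that averaged 10 or more normalized counts, the median SE was 0.068 in the pooled fit and 0.096 within either genotype. Both genotypes shared 1 estimate of the spread from all 12 libraries, so these values do not measure the spread within a genotype. Within wild-type mice 5108 genes passed (24.3%) and within AcPb-/- mice 6485 (30.9%). The wild-type count was 3137 without SD-WT replicate 02 and 3328 without CTL-WT replicate 02. Of the 8823 genes of the pooled fit, 1859 passed in neither genotype taken alone, and the median of their absolute log2 fold changes was 0.24. Conversely, 399 genes passed within a genotype and not in the pooled fit. The SD effects of the genotypes were measured on separate libraries, and across genes, which are not independent replicates, they had a Pearson r of 0.82 (16062 genes). In both genotypes Xist was found in controls only, and every SD library was deeper than every control. Such shared differences enter both effects, so r does not measure agreement on SD alone. The difference between the genotypes in the SD effect, tested for each gene as an interaction in limma, passed for 0 of 20978 genes. At an unadjusted p under 0.05 the interaction counted 839 genes, the smallest adjusted p was 0.99, and DESeq2 gave 1 gene and edgeR 0. Without CTL-AcPbKO replicate 03 limma gave 9. The interaction cannot show a difference that both genotypes share. With 3 mice per group, 0 genes past the threshold does not show that the effects were equal. Within the genotypes, 2 genes passed in both with opposite signs. The plot of the SD effect in the genotypes shows both effects for each gene. The calls marked in it were chosen on the average of both axes, so their place near the line of equal effects follows from the choice.

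**Figure D1:**
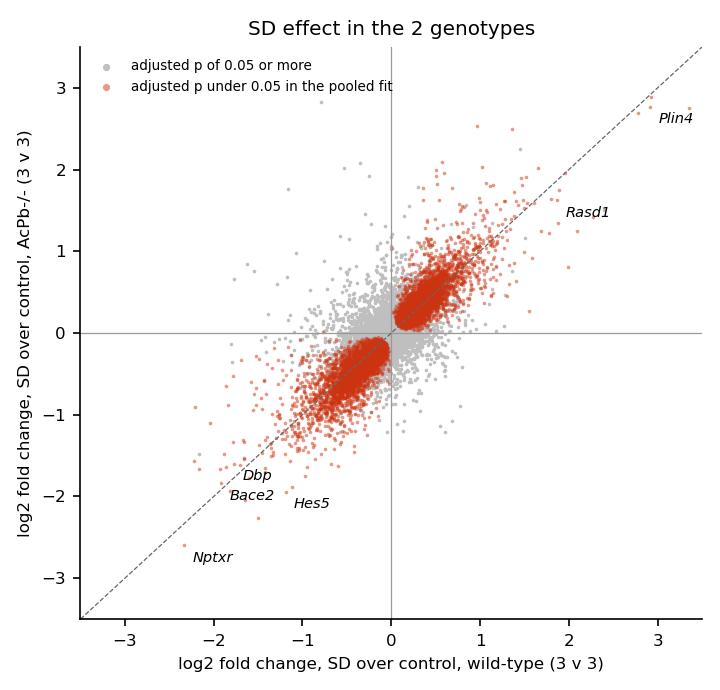
Each point is 1 of 16062 genes that averaged 10 or more normalized counts. The x axis is the log2 fold change of SD over control in wild-type mice (3 against 3) and the y axis the same in AcPb-/- mice (3 against 3), with 8 genes beyond the axes. Red points passed an adjusted p of 0.05 in the fit over both genotypes, and the dashed line marks equal effects. Plin4 and Rasd1 lie at the upper right, and Nptxr, Bace2, Dbp and Hes5 at the lower left.

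The calls depended in part on which controls were used. With a term for libraries with Xist 6559 genes passed (31.3%), 5908 of them among the 8823 (67.0%). In the 8 libraries without Xist, with 2 controls, 5910 genes passed (28.5%) and 5323 were among the 8823 (60.3%). With only the 4 controls that had Xist 8363 genes passed and 7700 were among the 8823. Of all tested genes, 16.2% were upregulated and 15.0% downregulated with the Xist term, and 15.2% and 13.3% in the libraries without Xist. The 2 sets of controls share the 6 SD libraries. Against both sets, 4836 of the 8823 genes passed. The direction was the same for 8816 of the 8823 genes in the libraries without Xist, which are part of the 12. Thinned to the smallest total, the fit called 8197 genes.

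The genes named first are the 10 highest and 10 lowest log2 fold changes, away from the sex chromosomes, among genes that averaged 100 or more normalized counts and showed no overlap between the 6 SD and the 6 control libraries. The highest was Plin4, a lipid droplet coat protein, on chromosome 17 from 56100591 to 56109803 (GRCm38, minus strand). Plin4 had 68.4 to 155 normalized counts in controls (median 102) and 443 to 966 after SD (median 838), which is log2 fold change 2.84 ± 0.23, limma adjusted p = 1.1e-06. Its lowest SD library lay far above its highest control. Hdgfl2 overlaps it on the other strand, as Sgf29 does Sult1a1, Sphk2 does Dbp, Ddb1 does Tkfc and Tmco6 does Ndufa2. The library kit keeps strand, but the strand setting of the counting is not given in the sources used here, so reads of such pairs are uncertain.

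Rasd1, a small G protein induced by dexamethasone, had 133 to 201 normalized counts in controls (median 172) and 338 to 692 after SD (median 615) (log2 fold change 1.75 ± 0.16, limma adjusted p = 2.3e-06). Hif3a, a hypoxia-inducible factor subunit, had 224 to 438 normalized counts in controls (median 316) and 759.7 to 1095 after SD (median 1036) (log2 fold change 1.60 ± 0.14, limma adjusted p = 2.1e-06). Sult1a1, a sulfotransferase of phenols and catechols, had 222 to 552 normalized counts in controls (median 358) and 848 to 1329.5 after SD (median 1032) (log2 fold change 1.56 ± 0.18, limma adjusted p = 1.3e-05). Cdkn1a, the cell cycle inhibitor p21, had 592 to 1019 normalized counts in controls (median 687) and 1398 to 2700 after SD (median 2053) (log2 fold change 1.51 ± 0.12, limma adjusted p = 1.1e-06). In all 4 the SD and control ranges were apart, which the rule for naming them required.

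Serinc2, a membrane protein of the serine incorporator family, had a log2 fold change of 1.72. Car12, a carbonic anhydrase at the cell surface, stood at 1.55. Plekhg4, a guanine nucleotide exchange factor, stood at 1.45. Prg4, the lubricant proteoglycan of joints, stood at 1.44. Snora81, a small nucleolar RNA inside an intron of Eif4a2, stood at 1.32, and its reads may include those of its host on the same strand. The 10 highest thus ranged from 1.32 to 2.84.

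The lowest was Nptxr, the neuronal pentraxin receptor of excitatory synapses. Nptxr had 579 to 2396 normalized counts in controls (median 1147) and 66.6 to 371 after SD (median 199) (log2 fold change -2.47 ± 0.38, limma adjusted p = 1.4e-04). Its libraries spread widely on both sides, and it overlaps Npcd on the same strand, so its reads are uncertain. Bace2, a protease related to the amyloid beta-secretase, had 197 to 336 normalized counts in controls (median 266) and 58.9 to 82.2 after SD (median 71.9) (log2 fold change -1.88 ± 0.14, limma adjusted p = 7.4e-07). Dbp, a clock-driven PAR bZIP transcription factor, had 1176 to 2899 normalized counts in controls (median 2039) and 374 to 985 after SD (median 579.5) (log2 fold change -1.68 ± 0.20, limma adjusted p = 1.7e-05). Hes5, a transcriptional target of Notch, had 320.3 to 739.8 normalized counts in controls (median 491) and 117 to 201 after SD (median 160.1) (log2 fold change -1.56 ± 0.17, limma adjusted p = 6.8e-06).

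Among the other 6 lowest were parts of the mitochondrial respiratory machinery. Atp5e, the epsilon subunit of ATP synthase, had 1963 to 2476 normalized counts in controls (median 2330.1) and 535 to 1290 after SD (median 694) (log2 fold change -1.54 ± 0.16, limma adjusted p = 6.0e-06). Sdhaf4, an assembly factor of succinate dehydrogenase, stood at -1.36. Tmem160 stood at -1.34. Cenpw, a centromere protein, stood at -1.35, Samd3 at -1.66 and Tmem74b at -1.38.

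The 6 smallest adjusted p were then taken among genes not yet named, under the same rule of no overlap. Each was 1.4e-07 in limma, and the libraries of these genes were tight. Tkfc, which phosphorylates dihydroxyacetone, had 584 to 649 normalized counts in controls (median 627) and 272 to 324 after SD (median 287) (log2 fold change -1.09). Cirbp, the cold-inducible RNA-binding protein, had 2340.2 to 3268 normalized counts in controls (median 2820.3) and 1224 to 1442 after SD (median 1249) (log2 fold change -1.14). Ahsa1, which activates the ATPase of Hsp90, had 4394 to 4708 normalized counts in controls (median 4495) and 6196 to 7004 after SD (median 6572) (log2 fold change 0.54). The ranges of these 3 did not overlap, which the rule required. Rbm28, a nucleolar RNA-binding protein, stood at 0.88, Ramp3, a receptor activity-modifying protein, at -1.12, and the ribosomal protein gene Rps24 at 0.81. The plot of the largest changes shows each library.

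**Figure D2:**
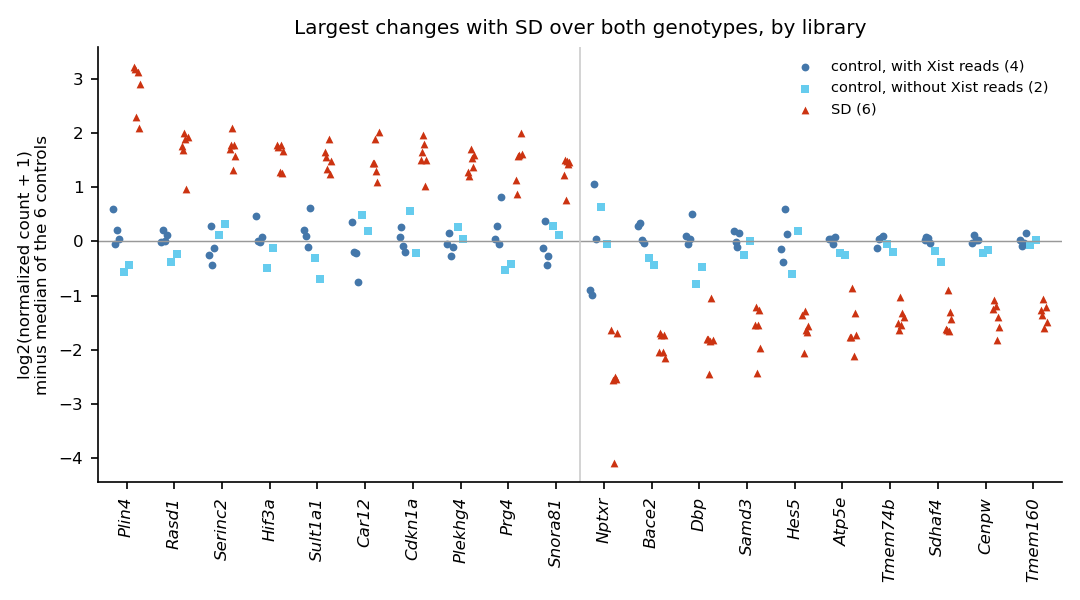
For each gene the y axis gives log2 of the normalized count plus 1 minus the median of the 6 controls, with 1 point per library: circles for the 4 controls with Xist reads, squares for the 2 without, triangles for the 6 SD libraries. The 10 highest genes are on the left and the 10 lowest on the right of the grey line. For all 20 the SD libraries lie beyond every control, which the rule for naming them required.

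Genes were then read by lists of pathways and cell types, each against the share of all tested genes, 21.4% upregulated and 20.6% downregulated. The lists with a share of upregulated members far above 21.4% included ER chaperones (20 of 26), glucocorticoid-responsive genes (18 of 24), cytosolic heat shock proteins (17 of 24), activity-induced effectors (17 of 26) and Srsf and Hnrnp splicing factors (20 of 31). Those with a share of downregulated members far above 20.6% included cholesterol synthesis (15 of 24), oxidative phosphorylation (40 of 75), cytosolic ribosomal proteins (37 of 85), microglial markers (9 of 18) and ATF4 targets (10 of 20). These are counts, with no test of the lists, and several fell in the alternatives for Xist, as given with most of these lists. Cytosolic heat shock proteins counted 15 upregulated with the Xist term and 16 in the libraries without Xist. Srsf and Hnrnp splicing factors counted 19 and 17.

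**Figure D3:**
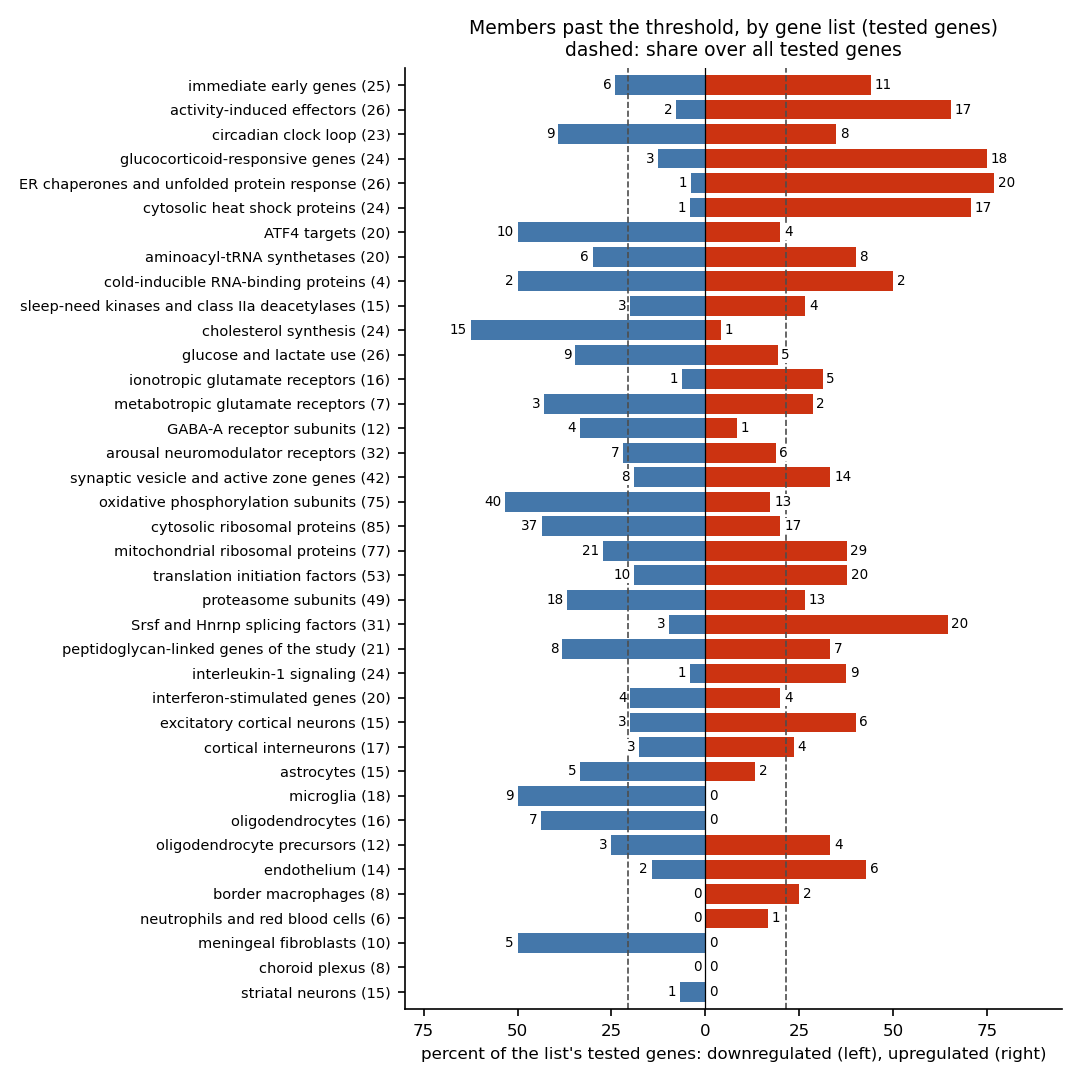
Bars give the percentage of each list's tested genes (number in parentheses) that were upregulated (red, right) or downregulated (blue, left) with SD at an adjusted p under 0.05 in the fit over both genotypes, with the number of genes at the bar's end. Dashed lines mark the same shares over all tested genes, 21.4% and 20.6%. ER chaperones, with 20 genes up and 1 down, and cholesterol synthesis, with 1 up and 15 down, lie far beyond the lines in opposite directions.

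Glucocorticoid-responsive genes moved mostly up, 18 of 24 upregulated and 3 downregulated, with a median log2 fold change of 0.54 beside 0.0029 over all tested genes. Their summed normalized count was 53000 to 73070 in controls and 92570 to 118500 after SD, with no overlap. A large part of these sums came from 1 gene, Fam107a, which averaged 21127 in controls and 44336 after SD. Plin4, Sult1a1, Hif3a and Cdkn1a, given above, belong to the list. Fkbp5, a co-chaperone that lowers the receptor's affinity for hormone, had 1017 to 1197 normalized counts in controls (median 1121) and 1788 to 3057 after SD (median 2716) (log2 fold change 1.21 ± 0.10, limma adjusted p = 1.5e-06). Zbtb16, a zinc finger repressor, had 1656 to 2096 normalized counts in controls (median 1927) and 2856 to 4256 after SD (median 3689.8) (log2 fold change 0.91 ± 0.081, limma adjusted p = 2.1e-06). Tsc22d3, the leucine zipper GILZ that mediates anti-inflammatory effects of the hormone, had 1859 to 3373 normalized counts in controls (median 2795) and 4108 to 5625 after SD (median 4759.9) (log2 fold change 0.83 ± 0.12, limma adjusted p = 9.5e-05). In these 3 every SD library lay above every control, but Zbtb16 and Tsc22d3 were named after their values were seen. Of the 24 members, 12 had every SD library above every control and 1 below, against 11.6% and 10.5% of all tested genes.

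Fam107a had 15239 to 26107 normalized counts in controls (median 22238) and 39475 to 50316 after SD (median 44101) (log2 fold change 1.08). Map3k6, a stress-activated kinase, had 176 to 226 normalized counts in controls (median 193) and 378 to 481 after SD (median 435) (log2 fold change 1.12). Sgk1, a kinase of ion transport, had 1899 to 3178 normalized counts in controls (median 2719) and 2700 to 4553 after SD (median 3732) (log2 fold change 0.52 ± 0.15, limma adjusted p = 0.011), and the groups overlapped. The receptor gene itself, Nr3c1, was downregulated, with 6055 to 7182 normalized counts in controls (median 6620) and 5386 to 6227 after SD (median 5847) (log2 fold change -0.18 ± 0.050, limma adjusted p = 0.0097). Ddit4, an inhibitor of mTORC1 that is a target both of the receptor and of ATF4, was also downregulated (log2 fold change -0.41). The other downregulated member, Cdkn1c, had the largest fall of the list (log2 fold change -0.68 ± 0.089, limma adjusted p = 3.4e-05), and its groups overlapped. Nr3c1 did not pass with the Xist term (-0.08), Ddit4 did not in the libraries without Xist (-0.22), and Sgk1 did not against only the controls with Xist (0.33). Under the Xist term 15 members of the list were upregulated and 2 downregulated. In 11 of 24 members both controls without Xist lay below the other 4 controls, against 10.6% of all tested genes, and in 0 above. Promoter windows were taken from RefSeq on GRCm38.p6 and run from 250 bases before to 50 bases after a gene's start. The core of the glucocorticoid response element, TGTTCT on either strand, was in the window of 5750 of 27025 symbols (21.3%) and in 4 of the 20 list members with a promoter window, all 4 upregulated. Of the 16 without it, 12 were upregulated and 1 downregulated.

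Immediate early genes encode transcription factors and a few synaptic proteins whose transcription follows calcium entry without new protein synthesis. Of 25, 11 were upregulated and 6 downregulated, with a median of 0.21. Egr3, a zinc finger factor, had 8128 to 11139 normalized counts in controls (median 9228) and 14387 to 20542 after SD (median 18393) (log2 fold change 0.95 ± 0.081, limma adjusted p = 1.6e-06). Maff, a small Maf factor, had 39.1 to 53.8 normalized counts in controls (median 46.8) and 78.2 to 107 after SD (median 85.8) (log2 fold change 0.91). Fosb, an AP-1 subunit that accumulates, had 533 to 855 normalized counts in controls (median 742) and 859 to 1297 after SD (median 986) (log2 fold change 0.51 ± 0.13, limma adjusted p = 0.0047). The SD and control ranges of all 3 were apart, but Fosb was named after its values were seen. Every SD library lay above every control in 4 of 25 members and below in 2, against 11.6% and 10.5% of all tested genes. Egr4 went the other way, with 1084 to 1826 normalized counts in controls (median 1676) and 653 to 819.8 after SD (median 725) (log2 fold change -1.06 ± 0.11, limma adjusted p = 7.7e-06), and so did the AP-1 subunit Jund (log2 fold change -0.68). With each library's trend along GC content and transcript length removed, Jund had -0.21 and Egr4 -0.55.

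The classic rapid genes overlapped between the groups, with a wide range in the controls. Fos had 678 to 3215 normalized counts in controls (median 2125) and 1188 to 1905 after SD (median 1539) (log2 fold change -0.22, limma adjusted p = 0.59). Arc, which acts at the synapse on AMPA receptor traffic, had 5061 to 23206 normalized counts in controls (median 13899) and 20835 to 23699.5 after SD (median 22328) (log2 fold change 0.91, limma adjusted p = 0.027). The SD libraries of Arc lay close together, and the highest control reached their level. Junb had 1442 to 3798 normalized counts in controls (median 3334) and 1742 to 1981 after SD (median 1839) (log2 fold change -0.59, limma adjusted p = 0.026). Arc and Junb passed the threshold in opposite directions and Fos did not pass. The direction of Junb turned with the Xist term and in the libraries without Xist (0.10 each, not past the threshold). Arc did not pass without CTL-AcPbKO replicate 03 (0.73) or SD-AcPbKO replicate 02 (0.89), and Junb did not pass when any 1 of the 4 controls with Xist was left out (-0.48 to -0.54). Nr4a1, an orphan nuclear receptor, had 3169.7 to 8657 normalized counts in controls (median 6289) and 5708 to 7336 after SD (median 6661) (log2 fold change 0.21, limma adjusted p = 0.45).

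The spread of the controls ran along Xist. The 2 controls without Xist had 678 and 1232 normalized counts of Fos, and the 4 with Xist had 1921 to 3215. For Arc the 2 had 5061 and 6445 and the 4 had 11491 to 23206. For Junb the 2 had 1442 and 2068 and the 4 had 3283 to 3798. In 14 of 25 immediate early genes both controls without Xist lay below the other 4, and in 0 above, against 10.6% and 10.3% of all tested genes. Set against the 2 controls without Xist alone, 16 of the 25 were upregulated and 3 downregulated, and Fos had a log2 fold change of 0.73 in place of -0.22. With the Xist term, 14 were upregulated and 3 downregulated. Arc had 1.97 against the 2 controls without Xist. With only the 4 controls that had Xist, Fos had -0.70, Arc 0.39 and Junb -0.94, so the signs of Fos and Junb and the size for Arc depended on the choice of controls.

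Activity-induced effectors, the secreted peptides, synaptic proteins and phosphatases made after the early factors, were mostly upregulated. Of 26, 17 were upregulated and 2 downregulated, with a median of 0.37. The counts were again 17 and 2 with the Xist term and in the libraries without Xist, which rest on the same 2 controls. Scg2, a granin precursor of secretoneurin, had 8327 to 10051 normalized counts in controls (median 8964) and 15905 to 21788 after SD (median 19225) (log2 fold change 1.05 ± 0.077, limma adjusted p = 7.4e-07). Inhba, the activin A subunit, had 219 to 358 normalized counts in controls (median 257) and 519 to 763 after SD (median 587) (log2 fold change 1.20 ± 0.13, limma adjusted p = 6.5e-06). Fndc9, a fibronectin type III membrane protein, had 169.6 to 234 normalized counts in controls (median 220.3) and 376 to 566 after SD (median 489) (log2 fold change 1.20). In these 3 the lowest SD library was above the highest control. This held for 11 of the 26 members, and 2 lay below every control, against 11.6% and 10.5% of all tested genes. The 2 members that fell were Nptxr, given above, and Gadd45g, a gene of stress and DNA demethylation.

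Homer1, the postsynaptic scaffold whose short form is induced by activity, had 7795 to 10648 normalized counts in controls (median 8245) and 11902 to 15658 after SD (median 13658) (log2 fold change 0.64). Ptgs2, the inducible prostaglandin synthase, had 627 to 953 normalized counts in controls (median 799) and 1201 to 1910.3 after SD (median 1547) (log2 fold change 1.0). Bdnf, the neurotrophin, had 1006 to 1776 normalized counts in controls (median 1382) and 1712 to 3298 after SD (median 2059.5) (log2 fold change 0.68 ± 0.13, limma adjusted p = 9.9e-04), and the groups overlapped. Dusp4, a phosphatase of MAP kinases, stood at 0.94 and the kinase Pim1 at 0.88. The related Dusp1 had 869.6 to 2868 normalized counts in controls (median 2242) and 1525 to 1917 after SD (median 1651) (log2 fold change -0.21, limma adjusted p = 0.52), with 870 and 1406 in the 2 controls without Xist and 2183 to 2868 in the 4 others.

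**Figure D4:**
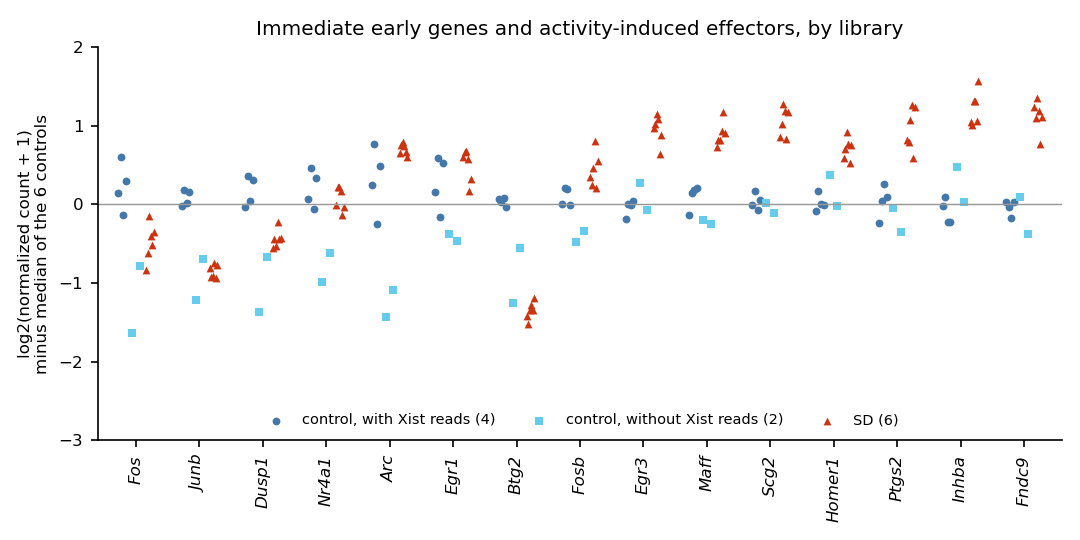
The y axis gives log2 of the normalized count plus 1 minus the median of the 6 controls, with 1 point per library: circles for the 4 controls with Xist reads, squares for the 2 without, triangles for the 6 SD libraries. From Fos to Btg2 the squares lie below the circles. From Egr3 to Fndc9 the SD libraries lie above every control of either kind.

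The cyclic AMP response element (CRE), the site of CREB, was sought as TGACGTCA on either strand in the same promoter windows (RefSeq, GRCm38.p6). It was in 549 of 27025 symbols (2.03%) and in 4 of the 20 effectors with a window. They are shown because 3 of the 4 were upregulated, with the CRE in capitals and the sequence read in the direction of the gene.
Scg2, chr1:79440075-79440106, minus strand: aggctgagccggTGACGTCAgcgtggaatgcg
Pcsk1, chr13:75089767-75089798, plus strand: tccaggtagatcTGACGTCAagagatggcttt
Plk2, chr13:110394970-110395001, plus strand: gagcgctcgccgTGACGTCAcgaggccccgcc
Dusp1, chr17:26508596-26508627, minus strand: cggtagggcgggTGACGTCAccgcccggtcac
Besides Scg2, Pcsk1, the prohormone convertase that processes it, had a log2 fold change of 0.31 (limma adjusted p = 0.019) and the kinase Plk2 one of 0.28 (limma adjusted p = 0.011). Dusp1, with the same letters, did not pass. Pcsk1 did not pass with the Xist term (0.23). Of the 16 effectors with a window and no CRE in it, 10 were upregulated and 1 downregulated. Among immediate early genes the CRE was in 2 of 19 with a window, of which Maff was upregulated and Btg2 downregulated.

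ER chaperones and sensors of the unfolded protein response were upregulated in 20 of 26 cases and downregulated in 1, with a median log2 fold change of 0.29. Their summed normalized count was 116800 to 138500 in controls and 167100 to 187700 after SD. Calr, the calcium-binding lectin chaperone calreticulin, had 12451 to 17537 normalized counts in controls (median 14108) and 27768 to 31976 after SD (median 28473) (log2 fold change 1.04 ± 0.073, limma adjusted p = 5.5e-07). Hsp90b1, the ER form of Hsp90, had 13692 to 17545 normalized counts in controls (median 15005) and 26978 to 31461 after SD (median 28769) (log2 fold change 0.93 ± 0.059, limma adjusted p = 2.8e-07). Hspa5, the master chaperone BiP, had 8752 to 12375 normalized counts in controls (median 9184) and 13499 to 18119.5 after SD (median 15973) (log2 fold change 0.72 ± 0.095, limma adjusted p = 4.0e-05). None of these 3 ranges overlapped, but Hspa5 was named after its values were seen. Every SD library lay above every control in 12 of 26 members and below in 1, against 11.6% and 10.5% of all tested genes.

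Pdia3 and Pdia6, which form disulfide bonds, stood at 0.71 and 0.51, and Manf, a secreted factor released under ER stress, at 0.63. Derl3, part of the channel that removes misfolded proteins, had 35.2 to 60.0 normalized counts in controls (median 46.1) and 70.8 to 136 after SD (median 94.6) (log2 fold change 1.08 ± 0.12, limma adjusted p = 1.4e-05). Of the transcription factors, Atf4 stood at 0.37 and Xbp1 at 0.20. Edem1, a mannosidase-like factor that tags misfolded glycoproteins, was the 1 member downregulated, at -0.25. Xbp1 and Edem1 did not pass in the libraries without Xist. Under the Xist term 15 members were upregulated and 1 downregulated, and in the libraries without Xist 13 and 0. In 3 of 26 members the 2 controls without Xist lay below the other controls and in 4 above, near the shares over all tested genes.

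The ER stress element is the site of the factors ATF6 and NF-Y and was sought as CCAAT, 9 bases of any kind and CCACG, on either strand. It was in the promoter window of 37 of 27025 symbols (0.137%), and in 9 of the 22 list members that have a window. All 9 were upregulated, as were 9 of the other 13, of which 1 was downregulated. These promoters are shown because all 9 genes with the element were upregulated. Capitals mark the element, or its complement where it lies on the other strand, and each sequence is read in the direction of the gene. The 250 bases before the start are given for Hspa5 and 12 bases on either side of the first match for the others.
Hspa5, chr2:34771840-34772089, plus strand: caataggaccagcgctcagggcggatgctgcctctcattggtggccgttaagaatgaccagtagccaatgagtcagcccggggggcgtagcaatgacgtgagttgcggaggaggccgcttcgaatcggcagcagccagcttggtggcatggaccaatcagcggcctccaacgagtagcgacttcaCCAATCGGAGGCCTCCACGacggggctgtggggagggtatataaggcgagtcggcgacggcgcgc
Hsp90b1, chr10:86705626-86705668, minus strand: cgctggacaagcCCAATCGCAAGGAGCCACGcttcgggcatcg
Calr, chr8:84847063-84847105, minus strand: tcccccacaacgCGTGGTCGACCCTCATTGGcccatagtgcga
Pdia6, chr12:17266479-17266521, plus strand: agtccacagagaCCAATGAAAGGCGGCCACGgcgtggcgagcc
Derl3, chr10:75893230-75893272, plus strand: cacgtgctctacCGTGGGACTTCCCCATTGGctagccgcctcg
Dnajc3, chr14:118937815-118937857, plus strand: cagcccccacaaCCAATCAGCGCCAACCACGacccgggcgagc
Creld2, chr15:88819508-88819550, plus strand: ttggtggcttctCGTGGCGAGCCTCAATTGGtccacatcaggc
Syvn1, chr19:6046520-6046562, plus strand: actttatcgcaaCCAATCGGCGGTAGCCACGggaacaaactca
Canx, chr11:50325788-50325830, minus strand: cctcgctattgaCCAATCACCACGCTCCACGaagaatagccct
In Hspa5 the match began 65 bases before the start site, in Pdia6 98 and in Syvn1 44. Dnajc3, an inhibitor of the eIF2 alpha kinase PERK, stood at 0.33, Creld2 at 0.27, the ubiquitin ligase Syvn1 at 0.18 and the lectin chaperone calnexin, Canx, at 0.14 (limma adjusted p = 0.043). Creld2, Syvn1 and Canx did not pass with the Xist term or in the libraries without Xist, and Canx lost its call in 16 of 30 alternatives. The change thus ranged from 0.14 to 1.08 among genes that share these letters. Outside the list, the 15 other tested genes with the element counted 3 upregulated and 1 downregulated.

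Cytosolic heat shock proteins fold proteins outside the ER, and many are driven by the factor HSF1. The list also held Hspd1 and Hspe1, which are mitochondrial. Of 24, 17 were upregulated and 1 downregulated, with a median of 0.36, and in 15 every SD library lay above every control, against 11.6% of all tested genes. Hspa8, the constitutive Hsc70, had 57314 to 72242 normalized counts in controls (median 63808) and 114098 to 126946 after SD (median 119291) (log2 fold change 0.90 ± 0.062, limma adjusted p = 5.1e-07). Hsph1, a nucleotide exchange factor of the 110 kDa class, had 14053 to 17228 normalized counts in controls (median 14843) and 24214 to 30190.1 after SD (median 27025) (log2 fold change 0.84). Stip1, which links Hsp70 with Hsp90, had 6141 to 7495 normalized counts in controls (median 6672) and 10882 to 12054 after SD (median 11796) (log2 fold change 0.78). Hsp90aa1, the inducible Hsp90, stood at 0.63. The member that fell was Hspbp1, which releases the nucleotide of Hsp70 and opposes it, at -0.70. The 6 members that did not pass were Hspa1a (0.0045), Hspa1b (0.19), Hspb1 (0.18), Dnajb1 (-0.072), Hspa1l (-0.10) and Hspa2 (-0.10).

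The heat shock element, sought as TTCNNGAA on either strand, was in 9.6% of all promoter symbols and in 5 of the 19 list members with a window, and all 5 were upregulated. Of the other 14, 7 were upregulated and 1 downregulated. The first match of 4 of them is shown with its neighbours, capitals marking each match, because a further match stands beside it in Hspe1 and Chordc1.
Hsph1, chr5:149636350-149636381, minus strand: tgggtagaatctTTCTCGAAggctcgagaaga
Dnajb4, chr3:152193840-152193871, minus strand: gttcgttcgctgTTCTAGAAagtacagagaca
Hspe1, chr1:55088047-55088078, plus strand: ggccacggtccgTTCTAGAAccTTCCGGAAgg
Chordc1, chr9:18292256-18292287, plus strand: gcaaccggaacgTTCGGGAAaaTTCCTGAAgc
Chordc1, an Hsp90 co-chaperone with 3 matches in its window, stood at 0.74. Hspe1, the mitochondrial co-chaperonin with 2, stood at 0.26, and Dnajb4, an Hsp40, at 0.36.

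**Figure D5:**
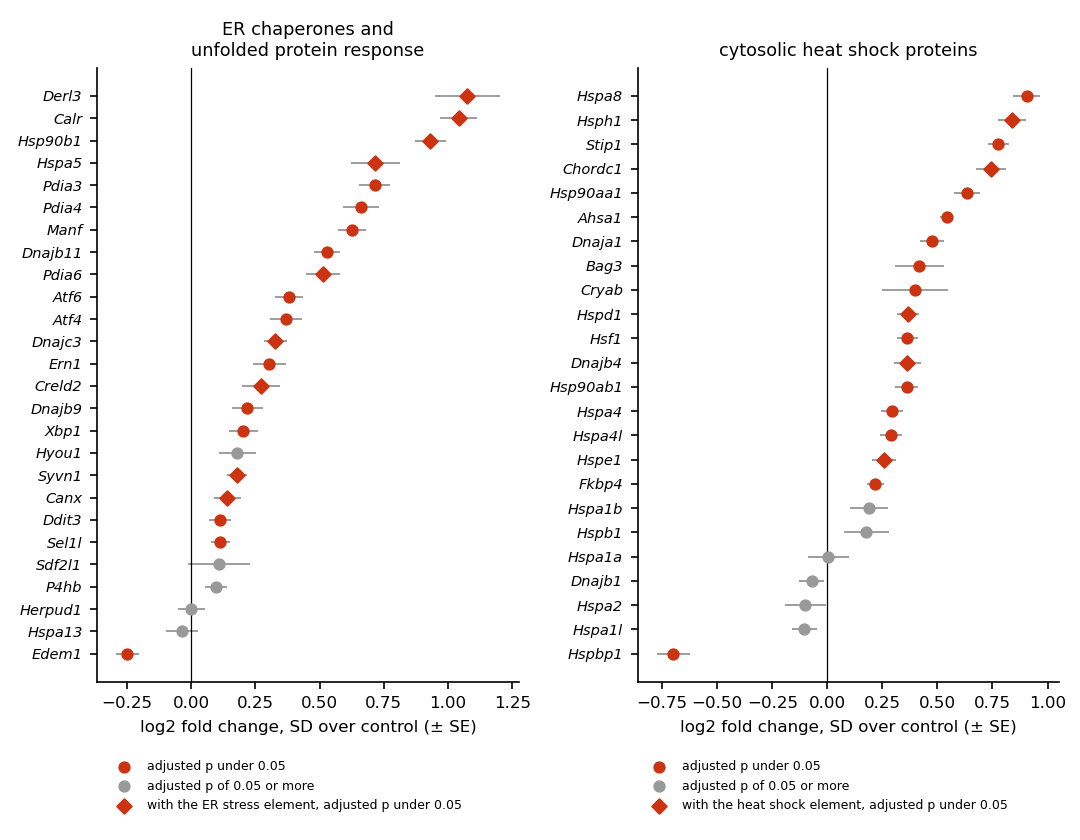
The x axis gives the log2 fold change of SD over control in the fit over both genotypes, and bars its standard error, for the 26 tested genes of the ER list (left) and the 24 cytosolic heat shock proteins (right). Red marks genes with an adjusted p under 0.05, grey those without, and diamonds the genes whose promoter window holds the ER stress element (9 genes) or the heat shock element (5 genes). All diamonds lie to the right of 0.

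The list named for cold-inducible RNA-binding proteins held Cirbp and Rbm3, and also Rbmx and Srsf5. Cirbp fell, as given above, and Rbm3 had 2219 to 2921 normalized counts in controls (median 2689) and 1739 to 2375 after SD (median 1873) (log2 fold change -0.39 ± 0.083, limma adjusted p = 0.0015). Rbm3 did not pass with the Xist term. Rbmx stood at 0.13 and did not pass in the libraries without Xist. Srsf5, a splicing factor, had 8247 to 9728 normalized counts in controls (median 8997) and 11989 to 17328 after SD (median 15134) (log2 fold change 0.73 ± 0.074, limma adjusted p = 5.5e-06), so that every SD library was above every control. Among Srsf and Hnrnp splicing factors as a whole, 20 of 31 were upregulated and 3 downregulated (median 0.24). Hnrnph1 had 8765 to 10243 normalized counts in controls (median 9179.9) and 15179.6 to 17103 after SD (median 15673) (log2 fold change 0.77), and Hnrnpa1 and Hnrnpf stood at 0.99 and 0.69. Hnrnpa0 went against them, with 5122 to 6116 normalized counts in controls (median 5293) and 2109 to 3247 after SD (median 2556) (log2 fold change -1.08 ± 0.087, limma adjusted p = 1.1e-06).

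The circadian clock runs as a loop in which CLOCK and BMAL1 (Arntl) drive Per, Cry, Nr1d and Dbp genes, whose products close it. Of 23 clock genes 8 were upregulated and 9 downregulated. On the driving side, Arntl had 2286 to 2626 normalized counts in controls (median 2541) and 3501 to 4602 after SD (median 4044) (log2 fold change 0.68 ± 0.064, limma adjusted p = 3.0e-06). Clock stood at 0.34 and Npas2, which can replace it, at 0.60. On the driven side, Per2 had 1373 to 2785 normalized counts in controls (median 1886) and 3180.3 to 3977 after SD (median 3806) (log2 fold change 0.97 ± 0.14, limma adjusted p = 9.0e-05), while Nr1d1 stood at -0.51, Ciart at -0.91, Tef at -0.37 and Dbp at -1.68. Nr1d1 did not pass in the libraries without Xist (-0.26). Genes driven by the same factors thus moved in opposite directions, Per2 up and Dbp down.

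The control level of many clock genes also ran along Xist. In 13 of 23 clock genes both controls without Xist were below the other 4, against 10.6% of all tested genes, and in 2 above. Npas2 was higher in them, with 3023 and 3411 against 2217 to 2659 in the others, and its log2 fold change was 0.30 with the Xist term. Per1 had 3114 to 8191 normalized counts in controls (median 5545) and 5438 to 7186 after SD (median 6288) (log2 fold change 0.31, limma adjusted p = 0.25), with 3114 and 3331 in the 2 controls without Xist. Ciart had 390 and 437 in these 2 controls and 609 to 898 in the others, and it did not pass with the Xist term or in the libraries without Xist (log2 fold change -0.27 both times). Under the Xist term the list counted 9 upregulated and 4 downregulated, and in the libraries without Xist 9 and 3. Per2, Arntl, Clock and Dbp passed under all 30 alternatives. The E-box CACGTG was in 8.09% of all promoter symbols and in 5 of the 19 clock genes with a window, of which 1 was upregulated and 2 downregulated. A match of such letters is a description of the sequence only.

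Cholesterol synthesis moved down as a list. Of 24 genes 15 were downregulated and 1 upregulated, with a median log2 fold change of -0.40, and in 14 every SD library lay below every control, against 10.5% of all tested genes. Their summed count was 69630 to 79140 in controls and 55240 to 63070 after SD. Insig1, a sterol sensor that retains SREBP in the ER, had 2956 to 3626 normalized counts in controls (median 3357) and 1890.4 to 2294 after SD (median 1922) (log2 fold change -0.75 ± 0.060, limma adjusted p = 1.1e-06). Mvd, which makes isopentenyl diphosphate, had 881 to 1129 normalized counts in controls (median 981) and 496 to 626 after SD (median 557) (log2 fold change -0.82 ± 0.068, limma adjusted p = 1.3e-06). Dhcr7, a sterol reductase late in the pathway, stood at -0.63.

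Hmgcs1, the synthase at the head of the pathway, stood at -0.48. Ebp, a sterol isomerase encoded on chromosome X, was the 1 member upregulated, at 0.35. The sterol response element TCACNCCAC was in 1.44% of all promoter symbols and in 1 of the 17 members with a window, Hmgcs1. The counts were 14 down and 1 up both with the Xist term and in the libraries without Xist, which rest on the same 2 controls.

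Of 26 genes of glucose and lactate use 5 were upregulated, near the share over all genes, and 9 downregulated, or 4 and 5 in the libraries without Xist. Pfkfb3, which makes the activator of phosphofructokinase, had 1397 to 2108 normalized counts in controls (median 1643) and 2872 to 3539.8 after SD (median 3229) (log2 fold change 0.95 ± 0.071, limma adjusted p = 7.4e-07). Pfkm, the muscle form of phosphofructokinase itself, had 21809.8 to 23085 normalized counts in controls (median 22025) and 15469 to 17686 after SD (median 16499) (log2 fold change -0.44 ± 0.040, limma adjusted p = 2.4e-06). The lactate transporters Slc16a1 and Slc16a3 stood at -0.75 and -0.96. Gapdh, often used as a reference gene, had 4514 to 5426 normalized counts in controls (median 4745) and 5885 to 6323 after SD (median 6205) (log2 fold change 0.35), with no overlap.

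Nuclear subunits of oxidative phosphorylation were downregulated in 40 of 75 cases and upregulated in 13, with a median of -0.17. The downregulated count was 29 with the Xist term and 22 in the libraries without Xist, with 13 and 12 upregulated. In 22 of 75 members both controls without Xist lay below the other 4, against 10.6% of all tested genes. Besides Atp5e, Ndufa2 of complex I had 1805 to 1978 normalized counts in controls (median 1890.3) and 626 to 1223 after SD (median 786) (log2 fold change -1.19 ± 0.11, limma adjusted p = 3.8e-06), and Cox5a of cytochrome oxidase stood at -0.80. Uqcrb of complex III went up, with 1953 to 2738 normalized counts in controls (median 2199.9) and 3715 to 4451 after SD (median 3916) (log2 fold change 0.82 ± 0.052, limma adjusted p = 2.8e-07). Cytosolic ribosomal proteins counted 37 down and 17 up of 85, with a median of -0.06, and 25 down and 11 up in the libraries without Xist. Rps27a had 3671 to 4752 normalized counts in controls (median 4211) and 1704 to 2761 after SD (median 2019) (log2 fold change -1.01), Rpl38 and Rps21 stood at -0.92 and -0.78, and Rps24 and Rps6 at 0.81 and 0.52. Many of these genes have processed pseudogenes that share their reads. Mitochondrial ribosomal proteins counted 29 up and 21 down of 77, but 28 up and 9 down with the Xist term and 26 and 7 in the libraries without Xist. Translation initiation factors counted 20 up and 10 down of 53, 1 of the 20 being the Y-linked Eif2s3y, and 14 and 4 in the libraries without Xist. Proteasome subunits counted 13 up and 18 down of 49, and 12 and 9 in the libraries without Xist.

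The shares called differed along transcript length and GC content over all genes. In the fifth of genes with the highest transcript GC content (55.6% and above) 43.6% were downregulated and 13.2% upregulated. In the fifth with the lowest (below 44.0%) 15.7% were downregulated and 35.0% upregulated. In the fifth with the shortest transcripts 30.5% were downregulated and 20.5% upregulated, and in the fifth with the longest 17.7% and 34.7%. With each library's trend along GC content and length removed, 8778 genes passed, 7405 of them among the 8823.

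Targets of ATF4, the factor of the integrated stress response, were downregulated in 10 of 20 cases and upregulated in 4, while Atf4 itself was upregulated. In the libraries without Xist 5 were downregulated and 2 upregulated. Cebpb had 146 to 182 normalized counts in controls (median 162) and 68.9 to 80.9 after SD (median 78.3) (log2 fold change -1.08 ± 0.095, limma adjusted p = 1.9e-06). Slc7a11, the cystine exchanger, and Phgdh, at the head of serine synthesis, stood at -0.74 and -0.61. Aminoacyl-tRNA synthetases counted 8 up and 6 down of 20 (5 and 4 in the libraries without Xist), with Tars at 0.42 and Vars at -0.63.

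Of 32 receptors for arousal transmitters 6 were upregulated and 7 downregulated, near the shares over all tested genes. Adora1, the inhibitory adenosine receptor, had 11060.3 to 13681 normalized counts in controls (median 12453) and 14821 to 20717 after SD (median 18838) (log2 fold change 0.57 ± 0.077, limma adjusted p = 5.1e-05). Htr2a and Htr1b, both serotonin receptors, stood at 0.61 and 1.01, and Hcrtr2, an orexin receptor, at 0.75. Adora2b had 119 to 181 normalized counts in controls (median 152) and 68.1 to 90.8 after SD (median 74.6) (log2 fold change -0.93 ± 0.10, limma adjusted p = 9.8e-06), and the beta adrenergic receptor Adrb1 stood at -0.56. Adora1 was apart in all libraries, and Hcrtr2 did not pass with the Xist term.

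Metabotropic glutamate receptors counted 2 up and 3 down of 7, with Grm2 at -0.63, and ionotropic ones 5 up and 1 down of 16, with Grik5 at -0.42 and Gria1 at 0.35. With the Xist term 1 ionotropic receptor gene was upregulated, and Gria1 did not pass (0.12). GABA-A subunits counted 1 up and 4 down of 12, and 1 and 2 with the Xist term. Gabrd, the subunit of tonic inhibition, had 3908 to 5568 normalized counts in controls (median 4798) and 2580.2 to 3640.3 after SD (median 3178) (log2 fold change -0.61 ± 0.091, limma adjusted p = 1.1e-04). Synaptic vesicle and active zone genes counted 14 up and 8 down of 42, with the syntaxin Stx1a at -0.40. These counts were 8 and 8 with the Xist term and 6 and 7 in the libraries without Xist. Of 15 kinases and deacetylases linked to sleep need 4 were upregulated and 3 downregulated, near the shares over all tested genes. Sik3, the kinase whose gain of function lengthens sleep, had 4285 to 7628 normalized counts in controls (median 6706) and 8020.1 to 9607 after SD (median 8814) (log2 fold change 0.45 ± 0.11, limma adjusted p = 0.0045), and its relative Sik2 stood at 0.60. Sik3 did not pass with the Xist term (0.22).

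Of 21 genes that the study links to peptidoglycan (PG), the bacterial cell wall polymer, 7 were upregulated and 8 downregulated (median -0.10). The study chose this list in part on these samples, so its counts are no independent evidence of direction. Pglyrp1, which binds PG, had 120.1 to 191 normalized counts in controls (median 176) and 241 to 312 after SD (median 290.5) (log2 fold change 0.79 ± 0.10, limma adjusted p = 3.2e-05). H2-T24, a nonclassical MHC gene, had 544 to 618 normalized counts in controls (median 596) and 938 to 1206 after SD (median 1124) (log2 fold change 0.91 ± 0.063, limma adjusted p = 5.4e-07). Myd88, the adaptor of Toll-like and IL1 receptors, stood at 0.43. On the lower side, Trem2, a microglial lipid receptor, had 411 to 525 normalized counts in controls (median 462) and 181 to 308 after SD (median 263) (log2 fold change -0.92 ± 0.10, limma adjusted p = 9.9e-06), and Tlr2 and Tlr4 stood at -0.51 and -0.44. In Pglyrp1, H2-T24 and Trem2 the groups did not overlap. Every SD library lay above every control in 6 of 21 members and below in 4, against 11.6% and 10.5% of all tested genes. With the Xist term 7 were upregulated and 4 downregulated, and Tlr4 did not pass (-0.35). Tlr2 did not pass in the libraries without Xist.

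Interleukin-1 signaling counted 9 up and 1 down of 24. The receptor gene Il1r1 had 258 to 364 normalized counts in controls (median 305) and 429.5 to 600.1 after SD (median 483) (log2 fold change 0.71 ± 0.10, limma adjusted p = 6.6e-05). Il1rap rose in both genotypes, with log2 fold changes of 0.28 in wild-type and 0.32 in AcPb-/- mice, and over all at 0.30. The kinase Irak2 stood at 0.36 and the cytokine Il18 at 0.25. Interferon-stimulated genes counted 4 up and 4 down of 20, near the shares over all tested genes, with B2m at 0.56. With the Xist term they counted 5 up and 1 down.

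Markers of cell types were read as lists too. In bulk tissue, fewer cells of a type and less RNA per cell cannot be told apart. Microglial markers counted 0 up and 9 down of 18 (median -0.15), with sums of 26680 to 28970 in controls and 20720 to 28530 after SD. Cx3cr1 had 2253 to 2741 normalized counts in controls (median 2345) and 1733 to 2156 after SD (median 2015) (log2 fold change -0.29 ± 0.060, limma adjusted p = 0.0013), and Aif1 stood at -0.47. With the Xist term 6 were downregulated, and in the libraries without Xist 5, with Aif1 no longer past the threshold.

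Oligodendrocyte markers counted 0 up and 7 down of 16 (median -0.32), and their sums overlapped, 66290 to 168700 in controls and 84350 to 142500 after SD. In all 16 both controls without Xist lay above the other 4 controls, against 10.3% of all tested genes. Against those 2 controls alone 12 of 16 were downregulated. Cnp had 5115 to 11727 normalized counts in controls (median 8099) and 3306 to 5079 after SD (median 4934) (log2 fold change -0.80 ± 0.14, limma adjusted p = 3.7e-04), with 11727 and 9226 in the 2 controls without Xist and 5115 to 8148 in the others. Opalin, a protein of myelin, stood at -1.05. The same 4 and 2 controls were apart in many immediate early genes, and the part of this in the SD values was not tested.

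Endothelial markers counted 6 up and 2 down of 14. Mfsd2a, the lipid transporter of the blood-brain barrier, had 744 to 1046 normalized counts in controls (median 882) and 1375 to 2565 after SD (median 2156) (log2 fold change 1.22 ± 0.13, limma adjusted p = 6.4e-06), Ly6c1 stood at 0.67, and the tight junction gene Cldn5 at -0.58. Astrocyte markers counted 2 up and 5 down of 15 (2 and 2 with the Xist term). The 2 up were the gap junction gene Gjb6 at 0.62 and Glul, glutamine synthetase, at 0.40. Among the 5 down were Slc4a4 at -0.33 and Aldh1l1 at -0.35. Excitatory neuron markers counted 6 up and 3 down of 15 (5 and 1 with the Xist term), with the transcription factor Neurod6 at 1.02 and the layer 4 gene Rorb at -0.56, the latter not past the threshold with the Xist term. Interneuron markers counted 4 up and 3 down of 17, near the shares over all tested genes. Crh, the stress neuropeptide made by cortical interneurons, had 239 to 335 normalized counts in controls (median 285) and 482 to 652 after SD (median 509) (log2 fold change 0.88 ± 0.077, limma adjusted p = 1.9e-06).

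Meningeal fibroblast markers counted 0 up and 5 down of 10, with sums of 8743 to 11450 in controls and 6897 to 9435 after SD, and Col1a1 stood at -0.65. The downregulated count was 2 with the Xist term and 1 in the libraries without Xist. Oligodendrocyte precursors counted 4 up and 3 down of 12, but 0 up and 6 down with the Xist term and 0 and 4 in the libraries without Xist. In 7 of the 12 both controls without Xist lay above the other 4, against 10.3% of all tested genes. Border macrophages counted 2 up and 0 down of 8 and choroid plexus 0 of 8. Striatal neurons counted 0 up and 1 down of 15, and 0 and 3 with the Xist term. Neutrophil and red blood cell genes counted 1 up and 0 down of 6, the 1 being Ngp, a neutrophil granule gene with 219 normalized counts in SD-AcPbKO replicate 04. Ngp (log2 fold change 1.82) lost its call in 17 of 30 alternatives, among them the fit without that library, and the list had 0 up and 1 down with the Xist term. The part of these other cell types in the results above was not tested.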

How the data were processed

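RNA-seq libraries (TruSeq Stranded mRNA) were made from somatosensory cortex of mice kept under SD or left undisturbed, 1 library per mouse. Per the labels and the study's methods, the authors aligned reads with HISAT2 2.2.1 to mm10, counted genes (featureCounts per the labels, HTSeq per the methods) and normalized the counts with DESeq2 1.31.16. The annotation and the strand setting are not given in the sources used here. The authors deposited 5 pairwise tables, which hold normalized counts, a signal with a size factor per library and table, and the fold changes, standard errors, test statistics and p-values of their own comparisons, which were not used here.

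The 5 tables were joined on gene name, and each value was turned back into reads with the smallest step of its column. All 732630 values came out whole within 0.01 (100.0%), and the reads of 1 library were identical in every table that holds it. The 24421 genes were rescaled with a common size factor per library (median of ratios). Genes with no read (3443) were left out and 20978 were tested. SD was compared with control in limma 3.58.1 (R 4.3.3), with a trend, on log2 of the normalized count plus 1, with genotype as a covariate, Benjamini-Hochberg adjustment and a threshold of 0.05. The effect within each genotype and the interaction came from 1 fit over all 12 libraries. Count tests on the recovered reads (edgeR 4.0.16, DESeq2 1.42.0) were alternatives, since the deposited unit is not counts. The fitting code was tested on simulated data. Total counts of 26504840 to 71857505 per library limit precision to counting error for genes with few reads. Replicates are separate mice. Replicates of 1 group differed by more than counting noise, so none was counted once for another.

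Genes were named by a rule: of genes past the threshold, with a mean of at least 100, on autosomes, with a symbol that is not of a predicted or clone gene, and without overlap between the groups, the 10 highest and 10 lowest fold changes and the 6 lowest adjusted p among the rest, and up to 4 members of each of 38 gene lists with the lowest adjusted p. Genes outside it were chosen after their values were seen: Zbtb16, Tsc22d3, Fam107a, Sgk1, Nr3c1, Ddit4, Fosb, Fos, Arc, Junb, Nr4a1, Egr1, Btg2, Gadd45g, Homer1, Ptgs2, Bdnf, Dusp4, Dusp1, Pcsk1, Plk2, Hspa5, Pdia6, Derl3, Atf4, Xbp1, Edem1, Dnajc3, Creld2, Syvn1, Canx, Hsp90aa1, Chordc1, Hspe1, Dnajb4, Npas2, Per1, Per2, Nr1d1, Ciart, Hmgcs1, Ebp, Slc16a1, Slc16a3, Cox5a, Rpl38, Htr1b, Hcrtr2, Sik1, Sik3 and Ttr. So were Cdkn1c, Hspa1a, Hspa1b, Hspa1l, Hspa2, Hspb1 and Dnajb1, which are not part of the checks on named genes below. Myd88, Tlr2, Tlr4, Nfil3 and H2-M3 were taken from the list of peptidoglycan-linked genes. The members, the gene lists and the tests were chosen with earlier results of these data known. Some genes are not reported here by name. Lists are described by counts and medians, with no test. Promoter letters came from the RefSeq table of GRCm38.p6 and were searched on both strands, and transcript length and GC content came from the reference annotation.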

Additional observations from a re-analysis of the deposited data

Results flagged for a closer look

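For 219 named genes, the 6 SD and the 6 control libraries were searched for a single library far from the others, by the gap to its nearest neighbour as a share of the whole range (Dixon's criterion for 6 values, at 95%). A library stood apart in 33 of 438 groups (7.53%), where chance gives about 1 in 20. The genotypes are mixed within a side, and values are normalized counts, with the range of the other 5 libraries.

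CTL-AcPbKO replicate 03 stood apart from the 5 others of its side in Creb1 (2852 against 3134 to 3234), Mrps2 (1292 against 1359.5 to 1393), B2m (2742 against 3858 to 4478), Neu4 (414 against 357 to 376) and Ttr (283 against 10.6 to 105). CTL-AcPbKO replicate 04 was the library apart for Pim1 (199.5 against 148 to 163), Hnrnpa0 (6116 against 5122 to 5384), Slc16a1 (2659 against 1612 to 1961) and Sik3 (4285 against 6458 to 7628). CTL-AcPbKO replicate 05 lay away from the 5 others in H2-M3 (179.7 against 132 to 145). CTL-WT replicate 01 stood apart from the 5 others of its side in Grm3 (4633 against 3524 to 3929.7) and Hspa5 (12375 against 8752 to 9546). CTL-WT replicate 02 was the library apart for Arntl (2286 against 2523 to 2626) and Pcsk1 (1306 against 1549 to 1654). CTL-WT replicate 03 lay away from the 5 others in Stx1a (16851 against 18268 to 19065) and Psmd7 (4513 against 4052 to 4149). SD-AcPbKO replicate 02 stood apart from the 5 others of its side in Sik2 (1986 against 1591 to 1697), Creb1 (4422 against 3639 to 3915), Hnrnph1 (17103 against 15179.6 to 15892) and Dusp1 (1917 against 1525 to 1660.1). SD-AcPbKO replicate 03 was the library apart for Dbp (985 against 374 to 587), Cirbp (1442 against 1224 to 1262), Insig1 (2294 against 1890.4 to 1927) and Eif2s1 (2188 against 2417 to 2554). SD-AcPbKO replicate 04 lay away from the 5 others in Camkk2 (14352 against 16610.5 to 17153), Adora2b (90.8 against 68.1 to 75.9), Ngp (219 against 6.1 to 25.9), Gpr6 (93.6 against 26.7 to 43.8) and Ttr (16186 against 26.7 to 93.6). SD-WT replicate 01 stood apart from the 5 others of its side in Grik5 (9762 against 8867 to 9089). SD-WT replicate 04 was the library apart for Cox7a2 (3509 against 2536 to 2841), Psmf1 (1594 against 1281 to 1355) and Nfil3 (968 against 707 to 729).

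Ttr and Ngp, in SD-AcPbKO replicate 04, are markers of choroid plexus and of neutrophils. The groups of Dbp, Cirbp, Insig1, Hspa5 and Arntl still did not overlap with these libraries included, which for Dbp and Cirbp the rule for naming required.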

How the results depend on the processing

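The count over both genotypes was 5910 (libraries without Xist) to 9271 (voom) over 18 other settings of the fit, 6430 at an adjusted p of 0.01, and 7994 to 8914 with each library left out. With a limit of 0.5 on the absolute log2 fold change it was 2584 (1150 up, 1434 down). Within wild-type mice it was 3137 to 5372 with each library left out, the lowest without SD-WT replicate 02 and 3328 without CTL-WT replicate 02, and within AcPb-/- mice 4733 to 6843. The interaction gave 1 gene in DESeq2 and 0 to 9 with each library left out, 9 of them without CTL-AcPbKO replicate 03. The labels do not say that a number marks shared mice or days. Of 10 same-numbered pairs of libraries 5 had deviations from their group means with a correlation over 0.1 (-0.43 to 0.23, median 0.053), and of 44 pairs with different numbers 12 had (-0.41 to 0.48), so the numbers were not taken as pairs. With a replicate block 7907 genes passed over both genotypes, 4495 in wild-type, 4573 in AcPb-/- and 0 in the interaction.

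Of 212 named genes past the threshold, 162 kept their call in all 30 alternatives. The sign turned for Fos with the Xist term (0.73) and in the libraries without Xist (0.73), for Junb (0.098, 0.10), and for Dusp1 (0.58, 0.58). It turned for Per1 (-0.0174), Nr4a1 (-0.13) and Sik1 (-0.17) against only the controls with Xist, an alternative chosen after seeing the data, for Grm4 (0.0273) with the GC content and length trend removed, and for Ttr without SD-AcPbKO replicate 04 (-0.40, the highest being 1.61 without SD-AcPbKO replicate 02). The cause was not tested. Depth limits genes with few reads, and SD libraries were deeper than controls throughout.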
